A study of Mus musculus with 8 samples.

Results

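Mouse primary myotubes treated with oncostatin M (OSM) were compared with mouse primary myotubes treated with interleukin 6 (IL6), library against library, with neither the untreated nor the LIF-treated myotubes as a reference. The comparison takes 4 of the 8 RNA-seq libraries of the series, 2 labelled OSM and 2 labelled IL6, and all 53647 Ensembl gene rows of their count tables. The series asks how 3 cytokines of the gp130 family, OSM, leukemia inhibitory factor (LIF) and IL6, change the transcripts of cultured muscle cells. Myoblasts were grown out of the limb muscles of wild-type (WT) pups aged 2 to 3 days and switched to medium with 5% horse serum, in which they fuse into myotubes. Each cytokine was given at 250 ng/ml for 48 h, and cells were collected 72 h after differentiation began. The IL6 group is thus WT myotubes with IL6 at 250 ng/ml, the OSM group WT myotubes with OSM at the same mass concentration, the control group WT myotubes without a named cytokine and the LIF group WT myotubes with LIF at 250 ng/ml. The labels do not say whether replicates 1 and 2 of a group came from separate cultures or pools of pups, so the p-values below measure the spread between these libraries, which may be technical.

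OSM and IL6 share a signal-transducing receptor chain, gp130 (gene Il6st), and differ in its partner. IL6 first binds its own receptor (Il6ra), and the pair brings gp130 chains together, whereas OSM joins gp130 to the OSM receptor (Osmr) and LIF joins it to the LIF receptor (Lifr). The assembled receptors activate Janus kinases, which phosphorylate STAT factors, above all STAT3, and also open the ERK branch; Socs3, a target of STAT3, feeds back on gp130. In skeletal muscle these cytokines are known for effects on the proliferation and fusion of myoblasts, on the acute-phase response and on wasting.

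The 4 libraries held between 29482077 and 29761609 counts assigned to genes, and all 8 lay between 29482077 and 30025471. On the first principal component of the 4 libraries, which held 64.4% of the variance, the OSM libraries stood at -30.1 and -26.4 and the IL6 libraries at 27.1 and 29.4. The second component, with 21.8%, separated IL6 replicate 1 (23.7) from IL6 replicate 2 (-22.6), while the OSM libraries lay at 1.94 and -3.06. All 10 myotube markers of a fixed list were detected in all 4 libraries, among them the embryonic myosin Myh3, with 6760.5 and 6686 CPM with OSM and 6658 and 7659 with IL6.

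OSM and IL6 left the myotubes with different transcriptomes. Of 15603 genes tested, 2426 (15.5%) passed an adjusted p of 0.05 in edgeR's quasi-likelihood test, 1252 of them higher with OSM (8.02%) and 1174 lower (7.52%). A call below means this test with Benjamini-Hochberg adjustment over all 15603 genes, and levels are CPM (read counts scaled to library size) with TMM factors. Among the called genes the median size of the log2 change was 0.49, and 553 genes (3.54%) were called with a change of at least 2-fold, 221 higher and 332 lower. The median log2 change of all tested genes was -0.0066. Every called gene had both OSM libraries beyond both IL6 libraries, a separation that 8473 genes (54.3%) showed in all. Without OSM replicate 1 the number of calls was 1105 and without OSM replicate 2 it was 1333, fits in which the lone OSM library is assumed to vary like the other groups. For each gene list below the range of its count over the 8 fits that each left out 1 library is given where that count moved by over 1.5 times. In the list directions with 0 calls, 9 members in all had an unadjusted p under 0.05 in edgeR, of which DESeq2 called 1 and limma-voom 0.

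**Figure D1:**
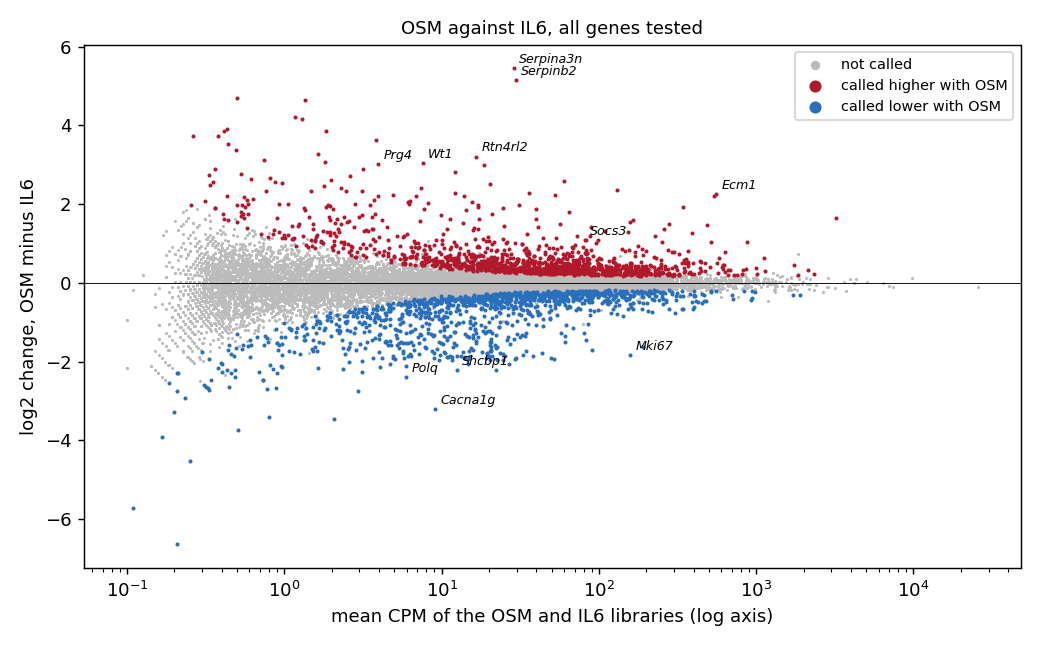
Log2 change between OSM and IL6 (vertical axis) against the mean CPM of the 4 libraries (horizontal log axis) for the 15603 genes tested; red points were called higher and blue points lower with OSM, and grey points were not called. Serpina3n and Serpinb2 stand above all other genes of their level, and called genes are found at all levels.

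Among the receptor chains, transcripts of the IL6 receptor itself were higher in the myotubes that had received OSM. Il6ra read 9.85 and 10.9 CPM with OSM and 5.79 and 4.92 with IL6 (log2 change 0.95, SE 0.14, adjusted p = 0.000306), and the groups did not overlap. The partner chains rose less. Lifr had 123 and 131 CPM with OSM and 95.4 and 102 with IL6 (log2 change 0.36, SE 0.093, adjusted p = 0.0185). Osmr had 95.8 and 108 CPM with OSM and 86.9 and 74.3 with IL6 (log2 change 0.34, SE 0.081, adjusted p = 0.0124). The shared chain Il6st was not called, at 486 and 499 CPM with OSM and 531 and 549 with IL6 (log2 change -0.13, SE 0.073, adjusted p = 0.26). Cntfr, the receptor for ciliary neurotrophic factor, stood at 2.74 and 3.56 CPM with OSM and 2.48 and 1.89 with IL6 (log2 change 0.53, SE 0.23, adjusted p = 0.144). Il11ra1, which shares 60% of its 50-base stretches with a near-identical copy and is uncertain for that reason, stood at 13.3 and 14.3 CPM with OSM and 10.5 and 12.5 with IL6 (log2 change 0.27, SE 0.12, adjusted p = 0.161). In all, 3 of 6 tested receptor chains were called higher and none lower, against 8.02% and 7.52% of all genes. This count ranged from 1 to 3 over the fits that each left out 1 library: the call of Lifr was lost without IL6 replicate 1, OSM replicate 1 or OSM replicate 2, and that of Osmr without IL6 replicate 2 or OSM replicate 2.

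Of the 7 tested ligands of the family 0 were called in either direction. Osm itself had 0 counts in all 4 libraries, so no transcript of the added cytokine was detectable at this depth. Il6 was low in both groups, at 1.37 and 1.58 CPM with OSM and 0.992 and 1.48 with IL6 (log2 change 0.25, SE 0.29, adjusted p = 0.633). Lif stood at 11 and 8.72 CPM with OSM and 13 and 7.66 with IL6 (log2 change -0.072, SE 0.24, adjusted p = 0.888), with the IL6 libraries on either side of the OSM libraries. The log2 change was 0.23 for Clcf1, -0.13 for Il11 and 0.19 for Ctf1, which encodes cardiotrophin 1. It was -0.14 for Cntf, 78.9% of whose exon bases overlap Zfp91 on the same strand. Ctf1 was called higher in the fit without IL6 replicate 1, at a log2 change of 0.55.

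**Figure D2:**
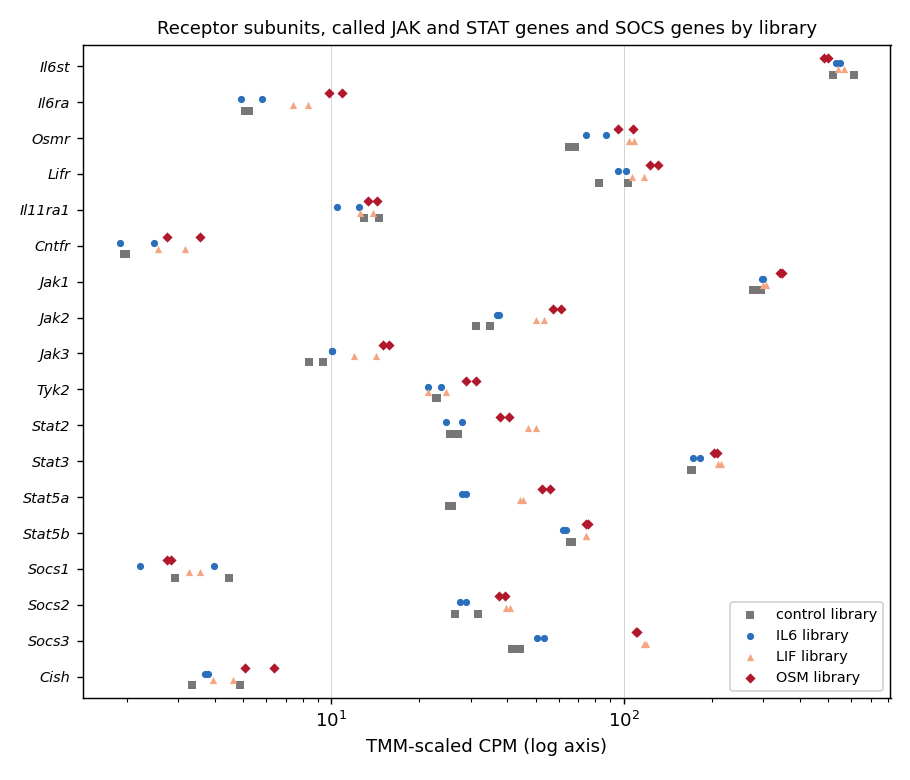
CPM in each of the 8 libraries (log axis) for the tested gp130 receptor chains, the 8 called JAK and STAT genes and 4 genes of the SOCS family; each point is 1 library and colour and shape give its treatment. Socs3 and Stat5a sit well apart between OSM and IL6, with the LIF libraries at or near the OSM level, whereas the Il6st points of all treatments lie close together; positions of different genes are not compared, since CPM takes no account of transcript length.

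The kinases and STAT factors below the receptors were mostly higher with OSM. Of 10 tested, 8 were called higher and 0 lower, with a median log2 change of 0.34. The largest rise was that of Stat5a, a STAT factor also used by growth hormone and prolactin, with 52.7 and 56.2 CPM with OSM and 28.9 and 28 with IL6 (log2 change 0.94, SE 0.071, adjusted p = 1e-06), and 10.8% of its 50-base stretches are shared with Stat5b. Jak2 had 57.2 and 60.9 CPM with OSM and 37.6 and 36.8 with IL6 (log2 change 0.67, SE 0.076, adjusted p = 3.9e-05). Jak3 had 15.1 and 15.7 CPM with OSM and 10.1 and 10.1 with IL6 (log2 change 0.61, SE 0.12, adjusted p = 0.00265). For each of these genes both OSM libraries lay above both IL6 libraries. Stat2 of the interferon response had 37.9 and 40.5 CPM with OSM and 24.7 and 28 with IL6 (log2 change 0.57, SE 0.083, adjusted p = 0.000335). Stat3 itself rose slightly, from 173 and 182 CPM with IL6 to 209 and 204 CPM with OSM (log2 change 0.22, SE 0.057, adjusted p = 0.0195). Its call was lost in the fit of the OSM and IL6 libraries alone and without IL6 replicate 1, either LIF library or either OSM library. The count of 8 fell to 4 without OSM replicate 1 and to 5 without OSM replicate 2. The number called lower was 1 without control replicate 1, control replicate 2 or IL6 replicate 1.

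Feedback inhibitors and STAT3 targets followed the same direction: 12 of 20 tested were called higher and 0 lower (median log2 change 0.41). Socs3, the feedback inhibitor that binds gp130, had 110.2 and 111 CPM with OSM and 50.6 and 53.3 with IL6, a rise of 2.13-fold (log2 change 1.09, SE 0.063, adjusted p = 1.02e-07). Its level in the LIF libraries was 117 and 119.6 CPM and in the control libraries 41.6 and 44.2 CPM, so the IL6 libraries lay nearer to control than to OSM. The inhibitor of matrix metalloproteinases Timp1 had 255 and 243 CPM with OSM and 84.3 and 78.8 with IL6 (log2 change 1.61, SE 0.073, adjusted p = 2.03e-08). Il4ra, the signalling chain of the receptors for interleukins 4 and 13, had 243 and 224 CPM with OSM and 83.4 and 76.6 with IL6 (log2 change 1.55, SE 0.082, adjusted p = 7.03e-08). Smaller rises were those of Mcl1, an anti-apoptotic BCL2 relative (log2 change 0.51, SE 0.073, adjusted p = 0.000286), and Socs2 (log2 change 0.44, SE 0.087, adjusted p = 0.00361). Cebpd, which encodes a transcription factor of the acute-phase response, was called (log2 change 0.61, SE 0.17, adjusted p = 0.0364). Its IL6 libraries differed from each other, at 23.7 and 14.8 CPM, and the call was lost in 9 of the alternative fits. The number called higher was 7 without OSM replicate 1 and 6 without OSM replicate 2.

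Genes that answer to ERK and AP-1 were raised in part: 11 of 27 were called higher and 0 lower (median 0.39). Egr2, an immediate-early transcription factor, had 25.9 and 24.3 CPM with OSM and 13.6 and 9.41 with IL6 (log2 change 1.122, SE 0.15, adjusted p = 0.000202). Hbegf, a ligand of the EGF receptor, had 82.6 and 75.4 CPM with OSM and 55 and 39.3 with IL6 (log2 change 0.75, SE 0.14, adjusted p = 0.00424). Both had a higher level in IL6 replicate 1 than in IL6 replicate 2, and neither IL6 library reached the OSM level. Dusp4, a phosphatase that switches off ERK, had 84.9 and 80.1 CPM with OSM and 52 and 51.8 with IL6 (log2 change 0.67, SE 0.066, adjusted p = 1.09e-05). Plaur, the urokinase receptor, had 29.6 and 27.9 CPM with OSM and 18.8 and 20.3 with IL6 (log2 change 0.56, SE 0.096, adjusted p = 0.00125). The LIF libraries of Dusp4, at 52.3 and 56.2 CPM, lay next to the IL6 libraries. The count of 11 was 4 without OSM replicate 1, and with single libraries left out it ranged from 4 to 16. Without IL6 replicate 2 the number called lower was 2.

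The 15 genes with the largest rises were led by a pair of serine protease inhibitors. Serpina3n, a secreted inhibitor of the acute phase, had 53.7 and 58.8 CPM with OSM and 0.695 and 1.89 with IL6, which is 43.5-fold (log2 change 5.44, SE 0.27, adjusted p = 7.38e-07). Serpinb2, which encodes plasminogen activator inhibitor 2, had 65.6 and 49.3 CPM with OSM and 2.22 and 1.01 with IL6, which is 35.4-fold (log2 change 5.15, SE 0.24, adjusted p = 2.72e-07). They differed in the LIF libraries. Serpina3n read 16.5 and 18.7 CPM there and Serpinb2 3.57 and 3.42 CPM, while in control libraries they read 0.721 and 1.44 CPM and 1.17 and 0.94 CPM. Of the exon bases of Serpinb2, 12.4% overlap the neighbouring Serpinb10 on the same strand. Smaller rises followed. Rtn4rl2, a relative of the Nogo receptor, had 31.8 and 28.3 CPM with OSM and 3.7 and 2.8 with IL6 (log2 change 3.21, SE 0.14, adjusted p = 1.96e-08). Wt1, a zinc-finger transcription factor known from kidney and mesothelium, had 14 and 13 CPM with OSM and 1.79 and 1.48 with IL6 (log2 change 3.04, SE 0.17, adjusted p = 7.83e-08). Prg4, which encodes the joint lubricant lubricin, had 7.01 and 7.01 CPM with OSM and 0.794 and 0.944 with IL6 (log2 change 3.01, SE 0.21, adjusted p = 5.68e-07). Htr2a, a serotonin receptor, had 20.4 and 22.3 CPM with OSM and 3.57 and 2.5 with IL6 (log2 change 2.81, SE 0.16, adjusted p = 1.02e-07).

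Of the other genes of that group of 15, the matrix protein Ecm1 had 919 and 927 CPM with OSM and 181 and 206 with IL6, a rise of 4.77-fold (log2 change 2.25, SE 0.072, adjusted p = 1.55e-09), with its 2 OSM libraries nearly equal. Adamtsl4, a fibrillin-binding matrix protein, had 221 and 217 CPM with OSM and 38.6 and 47.2 with IL6 (log2 change 2.35, SE 0.12, adjusted p = 1.9e-07). Ccbe1, which takes part in the processing of the lymphatic growth factor VEGF-C, had 33.6 and 35.8 CPM with OSM and 7.14 and 5.06 with IL6 (log2 change 2.50, SE 0.18, adjusted p = 1.76e-06). Anpep, the surface aminopeptidase N, had 86 and 86.8 CPM with OSM and 18 and 18.7 with IL6 (log2 change 2.24, SE 0.098, adjusted p = 1.96e-08). Inside the cell, Shc2, an adaptor of receptor tyrosine kinases, had 20.7 and 19.6 CPM with OSM and 4.47 and 3.74 with IL6 (log2 change 2.29, SE 0.13, adjusted p = 9.53e-08). Syt5, a synaptotagmin, had 14.1 and 10.8 CPM with OSM and 2.58 and 2.09 with IL6 (log2 change 2.41, SE 0.19, adjusted p = 1.44e-06). Prl2c3, a prolactin-like hormone of the proliferin family, had 40.3 and 25.9 CPM with OSM and 5.03 and 3.24 with IL6 (log2 change 3.00, SE 0.36, adjusted p = 0.0011), with the OSM libraries well apart from each other. Some 78.6% of its 50-base stretches also occur in Prl2c2, so its own level is uncertain. None of the 15 lost its call under any alternative. In 14 of the 15 both LIF libraries lay between the IL6 and the OSM libraries, and in 12 both IL6 libraries lay above both control libraries. Over all 1252 genes called higher these shares were 56.1% and 27.9%. The 15 were picked for wide gaps between OSM and IL6, which leaves LIF more room to lie between. No result is therefore drawn from the difference in shares. The exception to the LIF order was the interferon gene Rsad2, whose LIF libraries, at 72.8 and 67.6 CPM, lay above its OSM libraries.

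**Figure D3:**
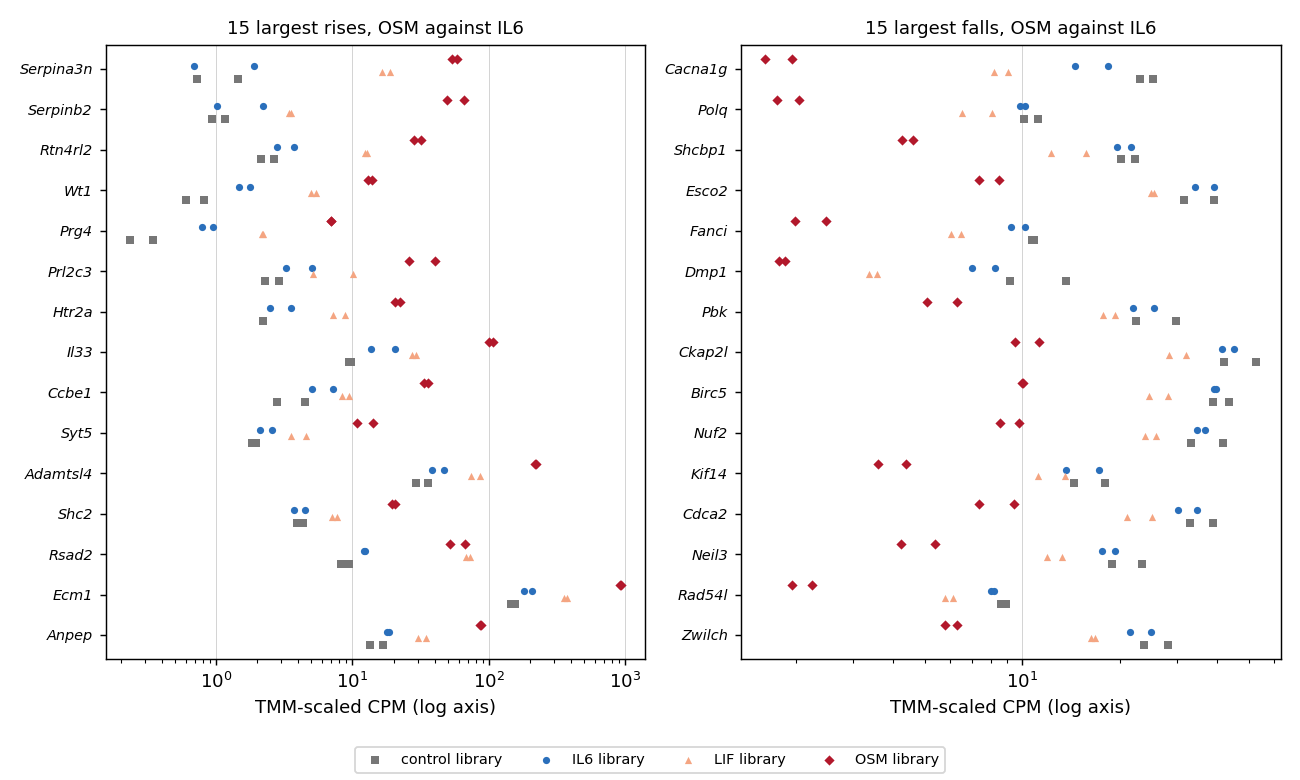
CPM in each of the 8 libraries (log axis) for the 15 named genes with the largest rises (left) and the 15 with the largest falls (right); each point is 1 library, with OSM as red diamonds, IL6 as blue circles, LIF as orange triangles and control as grey squares. Red and blue points never meet, because genes were chosen only where they do not. The orange points lie between them for every gene but Rsad2 on the left and for all 15 on the right.

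Promoters were read for the motifs of the STAT and AP-1 factors at the end of these pathways. The windows are those of RefSeq for build GRCm38.p6, 250 bases before to 50 after a start site, and 11128 of the tested genes had at least 1. In all, 4 motifs were searched on both strands: the STAT sites TTCCNGGAA and TTCNNNGAA, the AP-1 site TGANTCA and the E2F site TTTCCCGC. Every match of TTCCNGGAA is also a match of TTCNNNGAA. TTCCNGGAA occurred in 1.53% of tested genes with a window, in 2.6% of those called higher and in 1.42% of those called lower. For TGANTCA these shares were 6.57%, 10.4% and 6.56%. For TTCNNNGAA they were 8.14%, 9.9% and 8.09%. Among all 32851 windows the shares were 1.15% for TTCCNGGAA, 7.81% for TGANTCA and 8.3% for TTCNNNGAA. Among the 11 of the 15 rises that had a window, Prl2c3 was the one with TTCCNGGAA, and Serpinb2, Prl2c3, Rsad2 and Ecm1 held TGANTCA. Shown here are the stretch around the match in Prl2c3, the Socs3 promoter, as the textbook target of STAT3, and those of Serpinb2 and Ecm1, the strongest rise with a match and the one with the smallest error. All 4 were picked with their matches known. Of Socs3 and Ecm1 the 250 bases before the start are printed, and of Serpinb2 also the first 25 after it. Each is written 5′ to 3′ on the strand of its gene, with matches in capitals. They are TTCCNGGAA in Prl2c3 (chr13:12800036-12800065, minus strand, bases 15 to 44 from the start) and TTCNNNGAA in Socs3 (chr11:117969367-117969616, minus strand). They are both TGANTCA and, 3′ of it, TTCNNNGAA in Serpinb2 (chr1:107511173-107511447, plus strand), and TGANTCA in Ecm1 (chr3:95739570-95739819, minus strand).
Prl2c3: agtaaagcatcTTCCCGGAAtccacagcta
Socs3: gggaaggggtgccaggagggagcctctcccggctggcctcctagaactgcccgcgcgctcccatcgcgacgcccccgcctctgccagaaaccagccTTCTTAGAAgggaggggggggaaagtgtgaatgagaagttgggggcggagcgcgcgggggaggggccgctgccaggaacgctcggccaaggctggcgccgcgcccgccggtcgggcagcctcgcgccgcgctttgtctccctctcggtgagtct
Serpinb2: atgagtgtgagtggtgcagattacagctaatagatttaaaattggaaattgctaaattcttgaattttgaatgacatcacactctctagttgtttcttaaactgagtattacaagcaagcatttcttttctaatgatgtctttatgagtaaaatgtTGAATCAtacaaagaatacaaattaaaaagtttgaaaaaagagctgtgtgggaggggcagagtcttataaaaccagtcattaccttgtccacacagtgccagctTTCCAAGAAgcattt
Ecm1: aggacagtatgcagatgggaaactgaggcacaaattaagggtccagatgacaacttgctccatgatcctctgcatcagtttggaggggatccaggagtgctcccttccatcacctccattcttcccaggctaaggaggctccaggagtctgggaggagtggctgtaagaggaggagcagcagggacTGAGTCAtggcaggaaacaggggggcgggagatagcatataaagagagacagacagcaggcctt
Counted from the start site, the Socs3 match lies at -154 to -146, and the Serpinb2 matches lie at -94 to -88 and at 11 to 19. The Ecm1 match lies at -64 to -58. A match describes these letters alone and shows no binding.

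Of 25 acute-phase and complement genes 13 passed the filter, and of these 9 were called higher and 1 lower. Among the 9 were A2m, Saa3 and Serpina3m, which did not reach 10 counts in both IL6 libraries. They passed the filter through libraries where they were high, so this count and their calls are a description only. Behind Serpina3n, complement component C3 had 22.4 and 27.6 CPM with OSM and 6.02 and 6.04 with IL6 (log2 change 2.05, SE 0.12, adjusted p = 1.5e-07). The protease trap A2m was low, with 1.16 and 1.81 CPM with OSM and 0.298 and 0.202 with IL6 (log2 change 2.55, SE 0.42, adjusted p = 0.000912). Lbp, the carrier of bacterial lipopolysaccharide, went the other way, with 6.05 and 7.25 CPM with OSM and 10.7 and 15.9 with IL6 (log2 change -1.0, SE 0.24, adjusted p = 0.0178). This call was lost without IL6 replicate 2, OSM replicate 1 or OSM replicate 2. Of 7 macrophage markers, 2 passed the filter and Cd68 was called higher (log2 change 0.66, SE 0.19, adjusted p = 0.0273), a call lost with DESeq2 and without IL6 replicate 2, OSM replicate 1 or OSM replicate 2. Adgre1 and C1qa had 0 counts in all 4 libraries. The summed level of the tested markers was 15.1 and 13.7 CPM with OSM and 13.6 and 9.92 CPM with IL6, and their part in the result was not tested.

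Antiviral genes that interferon induces were raised in part. Of 26 tested, 13 were called higher and 0 lower (median 0.46). Ifi44 was lower with OSM at an unadjusted p under 0.05 in edgeR's test, without being called. Rsad2, which encodes viperin, had 52.3 and 67.2 CPM with OSM and 12.1 and 12.4 with IL6 (log2 change 2.29, SE 0.12, adjusted p = 7.03e-08). Ifit1, which binds foreign RNA caps, had 44.5 and 54.4 CPM with OSM and 13.8 and 11.3 with IL6 (log2 change 1.98, SE 0.11, adjusted p = 1.21e-07). The guanylate-binding protein Gbp3 had 5.17 and 6.85 CPM with OSM and 1.32 and 1.45 with IL6 (log2 change 2.11, SE 0.25, adjusted p = 6.32e-05). The helicase relative Ddx60 had 18.5 and 26 CPM with OSM and 6.35 and 6.04 with IL6 (log2 change 1.85, SE 0.15, adjusted p = 2.36e-06). Irf1, which takes part in the same response, was not called, at 19.8 and 21.6 CPM with OSM and 18.4 and 21.9 with IL6 (log2 change 0.041, SE 0.10, adjusted p = 0.842). Of 12 genes of MHC class I presentation 2 were called higher (16.7%) and 0 lower, against 8.02% and 7.52% of all genes (median -0.028). The log2 change was negative in 7 of the 12, down to -1.39. Of these, H2-D1 and Tap1 had an unadjusted p under 0.05 in edgeR's test. H2-K1 had 223 and 215 CPM with OSM and 171 and 159 with IL6 (log2 change 0.41, SE 0.093, adjusted p = 0.0113, lost without IL6 replicate 2 or OSM replicate 1). H2-T23, 16% of whose stretches occur in H2-K1, had a log2 change of 0.70. The light chain B2m was not called, at 365 and 369.8 CPM with OSM and 349 and 394 with IL6 (log2 change -0.017, SE 0.066, adjusted p = 0.904). Without OSM replicate 1 the MHC count was 1. Without control replicate 1 or control replicate 2, 1 interferon-induced gene was called lower.

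Signals to other cells changed in both directions. The alarmin Il33, a cytokine stored in the nucleus, had 108 and 99.4 CPM with OSM and 20.6 and 13.7 with IL6, a rise of 6.04-fold (log2 change 2.59, SE 0.14, adjusted p = 7.86e-07). The receptor chains for interleukins 4 and 13 rose too. Il4ra was given above. Il13ra1 had 337 and 335 CPM with OSM and 172 and 158 with IL6 (log2 change 1.03, SE 0.069, adjusted p = 3.45e-07). The decoy Il13ra2 had 2.16 and 2.75 CPM with OSM and 0.496 and 0.472 with IL6 (log2 change 2.33, SE 0.34, adjusted p = 0.000302). The common gamma chain Il2rg fell (log2 change -1.27, SE 0.19, adjusted p = 0.000456), though 30.5% of its exon bases overlap another gene on the same strand. In all, 4 of 7 genes of this pathway were called higher and 1 lower. The receptor for IL-33 itself, Il1rl1, was near the limit of detection at 0.171 and 0.369 CPM with OSM and 0.595 and 0.506 with IL6 (log2 change -1.01, SE 0.54, adjusted p = 0.249). Among 11 chemokines 1 was called higher (9.09%) and 2 lower (18.2%), against 8.02% and 7.52% of all genes. Cxcl10 rose, with 5.44 and 6.11 CPM with OSM and 1.89 and 1.55 with IL6 (log2 change 1.75, SE 0.23, adjusted p = 0.000136). The membrane-anchored Cx3cl1 fell, with 32.9 and 30.3 CPM with OSM and 98.4 and 81.2 with IL6 (log2 change -1.51, SE 0.11, adjusted p = 1.28e-06). Cxcl12, which draws muscle precursors along their path, fell as well (35.1 and 32.7 CPM with OSM and 71.4 and 54.9 with IL6, log2 change -0.90, SE 0.13, adjusted p = 0.000582). With single libraries left out the number of chemokines called higher ranged from 1 to 3.

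Matrix proteases, inhibitors and crosslinkers were called in both directions, more of them higher. Of 24 tested, 14 were called higher and 3 lower (median 0.59). The 3 called lower were all proteases. They were Mmp2 (log2 change -0.68, SE 0.16, adjusted p = 0.0234), the urokinase Plau (log2 change -0.53, SE 0.078, adjusted p = 0.000384) and Mmp11 (log2 change -0.36, SE 0.078, adjusted p = 0.00623). The calls of Mmp2 and Mmp11 were lost without OSM replicate 1, and that of Mmp2 also without OSM replicate 2. Beside Serpinb2 and Timp1, Plat, the tissue plasminogen activator, had 100.3 and 102 CPM with OSM and 42.2 and 46 with IL6 (log2 change 1.20, SE 0.074, adjusted p = 1.7e-07). Lox, the collagen crosslinking enzyme, had 1193 and 1144 CPM with OSM and 642 and 505 with IL6 (log2 change 1.03, SE 0.094, adjusted p = 1.09e-05). Timp3 had 391 and 357 CPM with OSM and 166 and 123 with IL6 (log2 change 1.37, SE 0.12, adjusted p = 4.12e-05), and 36.3% of its 50-base stretches are shared with Syn3, in whose gene it lies. Metalloproteinase Mmp14 was not called (163 and 156 CPM with OSM and 143 and 147 with IL6, log2 change 0.14, SE 0.064, adjusted p = 0.162). Without OSM replicate 1 the number called lower was 1.

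Of 31 collagens and matrix glycoproteins, 8 were called higher (25.8%) and 9 lower (29%), against 8.02% and 7.52% of all genes (median 0.094). Tnc, the tenascin of injured and developing tissue, had 332 and 301 CPM with OSM and 142 and 137 with IL6 (log2 change 1.18, SE 0.13, adjusted p = 0.000263). The proteoglycan Vcan had 347 and 357 CPM with OSM and 208 and 184 with IL6 (log2 change 0.84, SE 0.067, adjusted p = 1.61e-06). Of the basement-membrane collagens, Col4a1 had 252 and 265 CPM with OSM and 378 and 448 with IL6 (log2 change -0.68, SE 0.086, adjusted p = 0.000132). Col18a1 had 299.9 and 315 CPM with OSM and 429 and 553 with IL6 (log2 change -0.67, SE 0.094, adjusted p = 0.000373). Both were lower in each OSM library than in either IL6 library. Postn, which encodes periostin, had 5.06 and 5.07 CPM with OSM and 10.1 and 12.7 with IL6 (log2 change -1.17, SE 0.14, adjusted p = 4.97e-05). Fn1, which encodes fibronectin, was not called, at 4150.5 and 4051 CPM with OSM and 3839 and 3843 with IL6 (log2 change 0.094, SE 0.06, adjusted p = 0.343). The count of 8 ranged from 6 to 12 and that of 9 from 6 to 9 with single libraries left out. Beside these genes stand the fibroblast markers, of which 4 of 9 passed the filter. Col3a1 (log2 change 0.46, SE 0.075, adjusted p = 0.00083) and Pdgfra (log2 change 0.65, SE 0.15, adjusted p = 0.0074) were called higher, and without OSM replicate 2 the count was 1. Col1a1 pointed the other way without passing the test, at 72.1 and 84.7 CPM with OSM and 92.2 and 161 with IL6 (log2 change -0.69, SE 0.46, adjusted p = 0.432). Dcn was not called (log2 change 0.14, SE 0.24, adjusted p = 0.767), and Lum and Tcf21 had 0 counts in all 4 libraries. Their summed level was 2058 and 2166 CPM with OSM and 1503 and 1703 CPM with IL6; their part in the matrix result was not tested. In a bulk sample, fewer cells of a type and less RNA per cell cannot be told apart, here or in the lists below.

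Single genes of growth-factor systems changed, in both directions. Igfbp3, the main carrier of insulin-like growth factors in blood, had 919 and 861 CPM with OSM and 217 and 169 with IL6, a rise of 4.61-fold (log2 change 2.21, SE 0.097, adjusted p = 4.91e-08). Igfbp7 had 104 and 98.7 CPM with OSM and 64.4 and 70.8 with IL6 (log2 change 0.58, SE 0.092, adjusted p = 0.000761). Igfbp5 fell slightly, with 1477 and 1593 CPM with OSM and 1826 and 1981 with IL6 (log2 change -0.31, SE 0.074, adjusted p = 0.0115, lost without OSM replicate 1). Of 13 genes of this system 2 were called higher and 4 lower (median 0.006), with 2 to 4 higher and 1 to 4 lower when single libraries were left out. Of the 13 genes, 15.4% were called higher and 30.8% lower in the fit reported, against 8.02% and 7.52% of all genes. Of 35 genes of TGF-beta, activin and BMP signalling, 9 were called higher (25.7%) and 4 lower (11.4%), with a median of 0.12. The activin subunit Inhbb had 37.1 and 36 CPM with OSM and 11.8 and 15.3 with IL6 (log2 change 1.44, SE 0.12, adjusted p = 1.8e-06). The receptor Tgfbr2 had 108 and 100.1 CPM with OSM and 58.6 and 52.7 with IL6 (log2 change 0.90, SE 0.07, adjusted p = 1.16e-06). In both genes the groups were far apart. The follistatin-like Fstl1 had 434 and 428 CPM with OSM and 281 and 283 with IL6 (log2 change 0.61, SE 0.066, adjusted p = 2.54e-05). Gdf15, a stress-induced factor that acts on appetite, fell (8.62 and 8.12 CPM with OSM and 13.1 and 20.6 with IL6, log2 change -1.01, SE 0.18, adjusted p = 0.00211). These counts were 4 higher and 2 lower without OSM replicate 1, and 2 lower without OSM replicate 2.

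Cell-cycle transcripts were lower with OSM almost throughout. All 36 tested genes of mitosis and the kinetochore were called lower with OSM (median log2 change -1.67), where 7.52% of all genes were, and the count stayed at 36 in each fit with 1 library left out. Of 35 genes of DNA replication 33 were called lower and 0 higher (median -0.84), and 27 to 33 were called lower as single libraries were left out. Birc5, or survivin, had 10.1 and 10 CPM with OSM and 39 and 39.5 with IL6 (log2 change -1.97, SE 0.096, adjusted p = 3.39e-08). Nuf2, a subunit of the kinetochore complex that holds microtubules, had 8.55 and 9.76 CPM with OSM and 34.7 and 36.5 with IL6 (log2 change -1.96, SE 0.12, adjusted p = 1.57e-07). Cenpe, a kinetochore motor, had 10.8 and 13.4 CPM with OSM and 45.8 and 46.6 with IL6 (log2 change -1.93, SE 0.10, adjusted p = 7.03e-08). The condensin subunit Smc2 had 20.7 and 22.8 CPM with OSM and 83.2 and 81.9 with IL6 (log2 change -1.93, SE 0.091, adjusted p = 2.94e-08). The proliferation marker Mki67, named here for that use, had 62.6 and 75.6 CPM with OSM and 244 and 252 with IL6 (log2 change -1.84, SE 0.092, adjusted p = 7.03e-08). The libraries of the 2 treatments stood far apart for each of these genes. In the replication machinery, the polymerase subunit Pole had 5.61 and 5.94 CPM with OSM and 21.8 and 21.9 with IL6 (log2 change -1.92, SE 0.10, adjusted p = 5.65e-08). The helicase subunit Mcm5 had 6.23 and 6.24 CPM with OSM and 20.7 and 21.5 with IL6 (log2 change -1.76, SE 0.10, adjusted p = 1.02e-07). Thymidine kinase Tk1 had 6.94 and 6.88 CPM with OSM and 23.6 and 22 with IL6 (log2 change -1.72, SE 0.11, adjusted p = 1.91e-07). The 2 replication genes that were not called were Gins4 (log2 change -0.24, SE 0.098, adjusted p = 0.125) and Pole2 (log2 change 0.024, SE 0.14, adjusted p = 0.938).

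**Figure D4:**
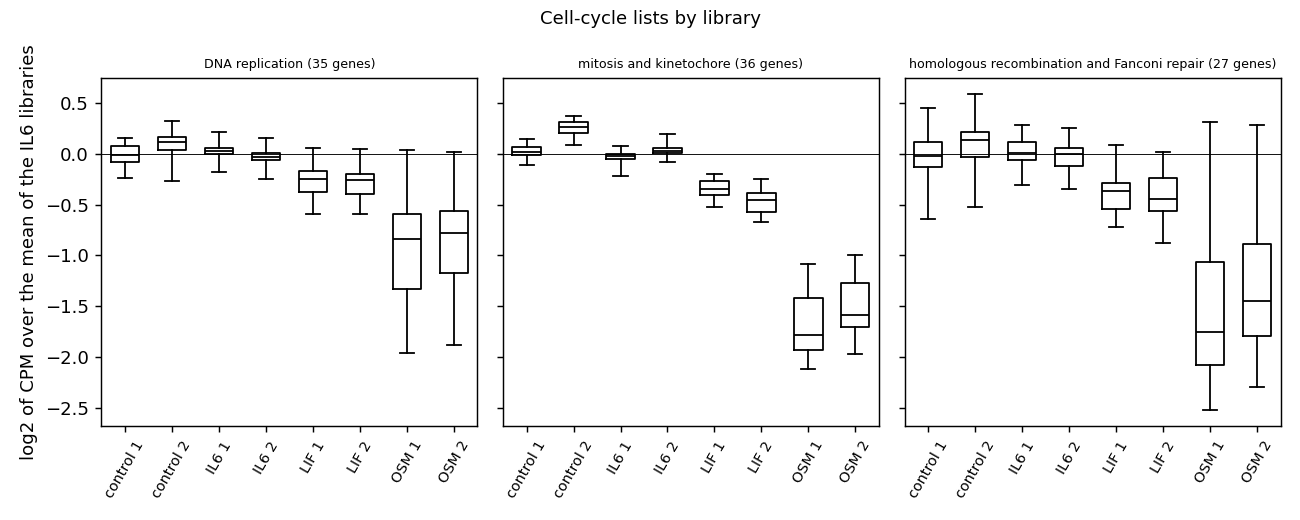
Level of each gene of 3 cell-cycle lists in each of the 8 libraries, as log2 of its CPM over the mean of the IL6 libraries; boxes span the quartiles over genes, the line is the median and whiskers reach the lowest and highest gene. For mitosis genes the medians are -1.78 and -1.58 in the OSM libraries, -0.35 and -0.46 in the LIF libraries, -0.024 and 0.024 in the IL6 libraries and 0.018 and 0.26 in the control libraries.

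The list of homologous recombination and Fanconi repair showed the same direction: 24 of 27 genes were called lower and 0 higher (median -1.59). The list also holds genes of neighbouring repair routes, such as Polq. Polq, a polymerase for the joining of broken ends, had 1.74 and 2.05 CPM with OSM and 9.82 and 10.2 with IL6 (log2 change -2.40, SE 0.17, adjusted p = 4.52e-07). Pif1, a helicase, had 0.821 and 0.872 CPM with OSM and 3.7 and 4.08 with IL6 (log2 change -2.19, SE 0.24, adjusted p = 2.37e-05). Neil3, a glycosylase that unhooks crosslinks, had 4.21 and 5.37 CPM with OSM and 17.7 and 19.4 with IL6 (log2 change -1.95, SE 0.15, adjusted p = 8.86e-07). Fanci and Rad54l had log2 changes of -2.12 and -1.94, but each overlaps a gene on the opposite strand, Polg and Lrrc41. Not called were Xrcc3 (log2 change -0.43, SE 0.19, adjusted p = 0.171), Fancm (log2 change -0.22, SE 0.13, adjusted p = 0.277) and Mus81 (log2 change 0.30, SE 0.11, adjusted p = 0.104). Without IL6 replicate 1 the number called higher was 1.

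Among the other genes of the 15 with the largest falls, Shcbp1, a cytokinesis protein, had 4.24 and 4.6 CPM with OSM and 21.6 and 19.6 with IL6 (log2 change -2.22, SE 0.14, adjusted p = 1.9e-07). Esco2, which acetylates cohesin, had 7.35 and 8.49 CPM with OSM and 34.1 and 39 with IL6 (log2 change -2.20, SE 0.12, adjusted p = 8.56e-08). The mitotic kinase Pbk (-2.06), the spindle protein Ckap2l (-2.06), the kinesin Kif14 (-1.95), the phosphatase anchor Cdca2 (-1.95) and the kinetochore protein Zwilch (-1.94) had log2 changes within a narrow range. For all 15 falls the LIF libraries lay between IL6 and OSM, against 65% of the 1174 genes called lower. These 15 were also picked for wide gaps, so no result is drawn from that difference. In 4 of the 15 (26.7%) both IL6 libraries lay below both control libraries, close to the 22.2% of all genes called lower. None of the 15 lost its call under any alternative.

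The regulators of entry into the cycle were less uniform. Of 22 cyclins, CDK inhibitors and E2F genes, 7 were called lower (31.8%) and 2 higher (9.09%), against 7.52% and 8.02% of all genes (median -0.14). The repressor E2f7 had 6.77 and 7.38 CPM with OSM and 13.3 and 13.1 with IL6 (log2 change -0.90, SE 0.13, adjusted p = 0.000263). Ccnd1, or cyclin D1, had 65.6 and 70.2 CPM with OSM and 117 and 101 with IL6 (log2 change -0.68, SE 0.082, adjusted p = 6.84e-05), and 27.2% of the stretches of Ccnd1 are shared with the neighbouring LTO1. Ccnd2 moved the other way, with 213 and 214 CPM with OSM and 169 and 163 with IL6 (log2 change 0.37, SE 0.064, adjusted p = 0.00139). So did the inhibitor Cdkn1b, with 201 and 195 CPM with OSM and 159.7 and 174 with IL6 (log2 change 0.25, SE 0.069, adjusted p = 0.0273). Its call was lost without IL6 replicate 1, either LIF library or either OSM library. The inhibitor Cdkn1a, which holds myotubes out of the cycle, was not called (1379 and 1287 CPM with OSM and 1284 and 1389 with IL6, log2 change -0.0038, SE 0.066, adjusted p = 0.983). The count of 7 was 4 without either OSM replicate 1 or OSM replicate 2, and that of 2 was 1 without IL6 replicate 1, either LIF library or either OSM library. Myoblasts, which divide until they fuse, are among the cells such a culture can hold, and 2 of 5 myoblast markers were called higher with OSM and 0 lower. Pax7, a marker of muscle stem cells, had 61.1 and 57.3 CPM with OSM and 45 and 46.7 with IL6 (log2 change 0.37, SE 0.066, adjusted p = 0.0017). Myf5 was called (log2 change 0.78, SE 0.25, adjusted p = 0.0482), but lost the call in 10 of the alternatives, DESeq2 and limma-voom among them, which left 1 marker called. Myod1 was not called (log2 change 0.10, SE 0.11, adjusted p = 0.597). The summed level of the 5 was 366 and 357 CPM with OSM and 318 and 300.4 CPM with IL6, and their part in the cell-cycle result was not tested.

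The E2F motif TTTCCCGC occurred in 2.28% of the tested genes with a window, in 2.08% of those called higher and in 5.36% of those called lower. By list it occurred in 6 of 27 DNA replication genes (22.2%), 4 of 17 cyclin, inhibitor and E2F genes (23.5%), 2 of 20 recombination and Fanconi genes (10%) and 1 of 30 mitosis genes (3.33%), against 1.07% of all windows. Of the 4 cyclin, inhibitor and E2F genes with the motif, E2f7 was called lower, and Cdkn2a, Cdk2 and E2f3 were not called. Of the genes of these 4 lists with the motif in the 250 bases before the start, Bard1, the partner of BRCA1, and Cdc6, which loads the replicative helicase, had the largest falls, at log2 changes of -1.59 and -1.34, and were chosen for display on that ground. The 250 bases before the start, shown here, are chr1:71102973-71103222 on the minus strand and chr11:98907901-98908150 on the plus strand of GRCm38.p6, from RefSeq, with the motif or its reverse complement in capitals.
Bard1: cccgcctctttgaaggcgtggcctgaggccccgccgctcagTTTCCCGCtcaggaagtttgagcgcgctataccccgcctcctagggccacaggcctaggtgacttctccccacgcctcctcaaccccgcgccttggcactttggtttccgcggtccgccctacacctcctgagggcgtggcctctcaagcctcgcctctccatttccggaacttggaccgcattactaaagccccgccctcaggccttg
Cdc6: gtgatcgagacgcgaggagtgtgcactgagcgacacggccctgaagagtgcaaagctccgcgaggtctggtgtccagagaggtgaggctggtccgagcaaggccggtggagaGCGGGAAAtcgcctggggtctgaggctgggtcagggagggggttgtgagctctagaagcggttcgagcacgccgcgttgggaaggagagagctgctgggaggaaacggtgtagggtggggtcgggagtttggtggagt
Counted from the start site, the match lies at -209 to -202 in Bard1 and at -138 to -131 in Cdc6.

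Of 43 sarcomere genes 3 were called higher (6.98%) and 2 lower (4.65%), against 8.02% and 7.52% of all genes (median -0.04). Leaving out single libraries gave 1 to 5 higher and 0 to 5 lower. Acta1, or skeletal actin, had 5110 and 5073 CPM with OSM and 4397 and 5681 with IL6 (log2 change 0.015, SE 0.098, adjusted p = 0.947). The intermediate filament Des had 1261 and 1241 CPM with OSM and 989 and 1056 with IL6 (log2 change 0.29, SE 0.063, adjusted p = 0.00639, lost without OSM replicate 1). Slow troponin Tnnc1 had 1732 and 1677 CPM with OSM and 2048 and 2152 with IL6 (log2 change -0.30, SE 0.074, adjusted p = 0.0132, lost without either OSM library). Of 27 genes of calcium handling 1 was called higher and 1 lower (median 0.033), with 0 to 2 higher as single libraries were left out. The 1 higher and the 1 lower are each 3.7% of the list, against 8.02% and 7.52% of all genes. The fall was that of Cacna1g, the alpha subunit of a T-type calcium channel of embryonic muscle. Cacna1g had 1.61 and 1.95 CPM with OSM and 14.5 and 18.4 with IL6, a fall of 9.23-fold (log2 change -3.21, SE 0.16, adjusted p = 5.53e-08), the largest fall among the named genes. The LIF libraries read 9.05 and 8.17 CPM and the control libraries 25.3 and 23.2 CPM, so every treated library lay below both control libraries. Its relative Cacna1h had 39.2 and 35.5 CPM with OSM and 31.7 and 29.4 with IL6 (log2 change 0.29, SE 0.082, adjusted p = 0.0292). That call was lost in the fit of the OSM and IL6 libraries alone and without IL6 replicate 2, either LIF library or OSM replicate 1. At the neuromuscular junction 1 of 13 genes was called higher and 1 lower, with 0 to 3 higher and 0 to 2 lower as single libraries were left out. These were Rapsn (log2 change 0.31, SE 0.087, adjusted p = 0.0279, lost without IL6 replicate 1, either LIF library or either OSM library) and Colq (log2 change -0.57, SE 0.11, adjusted p = 0.00324, lost without OSM replicate 2). Of the junction genes 7.69% were called in each direction, against 8.02% and 7.52% of all genes. The receptor subunit Chrna1 was not called, at 746 and 708 CPM with OSM and 763 and 690.3 with IL6.

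Myogenic regulators and fusion genes moved in both directions, with 4 of 18 called higher and 4 lower (median 0.031). These are 22.2% in each direction, against 8.02% and 7.52% of all genes. Myog, which drives terminal differentiation, had 819.8 and 752 CPM with OSM and 1044 and 1073 with IL6 (log2 change -0.43, SE 0.086, adjusted p = 0.00401, lost without OSM replicate 2). Its partner Mef2a had 283 and 296 CPM with OSM and 365 and 369.6 with IL6 (log2 change -0.34, SE 0.06, adjusted p = 0.00148). Mymx, the fusion peptide myomixer, had 83.9 and 84 CPM with OSM and 110.5 and 93.3 with IL6 (log2 change -0.28, SE 0.074, adjusted p = 0.0209). That call was lost in the fit of the OSM and IL6 libraries alone and without IL6 replicate 1 or either OSM library. The fusion protein Mymk was not called, at 430.03 and 401 CPM with OSM and 427 and 487 with IL6 (log2 change -0.14, SE 0.073, adjusted p = 0.25). On the other side Pax7, given above, was the only 1 of the 4 rises that kept its call in every alternative run. The counts ranged from 1 to 5 for higher and 1 to 5 for lower with single libraries left out.

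Among 28 genes linked to atrophy, 8 were called higher (28.6%) and 2 lower (7.14%), against 8.02% and 7.52% of all genes (median 0.09). The 8 include Mt1, Mt2 and Ctsl, which are counted again in the metallothionein or lysosome list below. These counts are therefore not separate results. Fbxo32, the ubiquitin ligase atrogin-1, had 137 and 129 CPM with OSM and 64.4 and 61.8 with IL6, a rise of 2.11-fold (log2 change 1.08, SE 0.071, adjusted p = 2.82e-07), against 55.3 and 62.8 CPM in control and 79 and 80.7 CPM in LIF libraries. The other muscle ubiquitin ligase, Trim63 (MuRF1), was not called, at 57.7 and 64.5 CPM with OSM and 47.6 and 69.4 with IL6 (log2 change 0.064, SE 0.14, adjusted p = 0.828). Its IL6 libraries lay on both sides of the OSM libraries. Eda2r, a receptor of the TNF family linked to wasting, was likewise not called (231 and 251 CPM with OSM and 236 and 257 with IL6, log2 change -0.034, SE 0.069, adjusted p = 0.807). In the fit without IL6 replicate 2 Trim63 was called higher, at a log2 change of 0.36. The metallothioneins, which bind zinc and rise in wasting muscle, were higher. Mt1 had 591 and 504 CPM with OSM and 269 and 189 with IL6 (log2 change 1.26, SE 0.14, adjusted p = 0.000449). Mt2 had 753 and 666 CPM with OSM and 307 and 207 with IL6 (log2 change 1.47, SE 0.16, adjusted p = 0.000302). In both genes the IL6 libraries differed from each other but stayed under the OSM libraries, and 73.5% of the exon bases of Mt2 overlap an antisense gene. The zinc importer Slc39a6 rose as well (56.1 and 57 CPM with OSM and 41.9 and 43.9 with IL6, log2 change 0.40, SE 0.069, adjusted p = 0.00128). In all, 6 of 10 genes of this list were called higher and 0 lower, and 1 was called lower without control replicate 1, control replicate 2 or IL6 replicate 1. Without OSM replicate 1 the number of atrophy genes called higher was 5, and the number called lower was 0 to 2 as single libraries were left out, with 0 without either OSM library.

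Lysosomal genes were raised in part. Of the proteasome subunits 6.45% were called higher and 9.68% lower, against 8.02% and 7.52% of all genes. Of 24 genes of autophagy and the lysosome 10 were called higher and 1 lower (median 0.20). Lamp2, a lysosomal membrane protein, had 547 and 558 CPM with OSM and 376 and 405 with IL6 (log2 change 0.50, SE 0.065, adjusted p = 0.000128). Map1lc3b, which marks autophagosomes, had 178 and 181 CPM with OSM and 133 and 135 with IL6 (log2 change 0.42, SE 0.059, adjusted p = 0.00026). The proteases Ctsb (0.78), Ctsd (0.51), Ctsl (0.46) and Ctsa (0.79) were called higher on the log2 scale too, although each shares between 12.8% and 34.4% of its exon bases with another gene. The count of 10 was 6 without OSM replicate 2, and the 1 called lower was lost in 6 of the fits that left out 1 library. Of 31 proteasome subunits 2 were called higher and 3 lower (median -0.064), with 0 to 2 and 0 to 3 as single libraries were left out, and the log2 changes of all subunits lay between -0.24 and 0.25.

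Of 35 respiratory-chain genes 0 were called higher and 2 lower (5.71%, against 7.52% of all genes; median -0.045). With single libraries left out, 0 to 3 were called higher and 1 to 7 lower. The muscle subunit Cox6a2 fell, with 104 and 98.1 CPM with OSM and 141 and 160.4 with IL6 (log2 change -0.58, SE 0.076, adjusted p = 0.000136). Of 26 genes of glycolysis, glycogen and phosphocreatine 2 were called higher (7.69%, against 8.02% of all genes) and 0 lower, both lost without OSM replicate 1. Gapdh was not called, at 6553 and 6114 CPM with OSM and 6102 and 6641 with IL6 (log2 change -0.0085, SE 0.078, adjusted p = 0.962). Of 27 genes of cholesterol and fatty acid synthesis 0 were called higher and 4 lower (14.8%, against 7.52% of all genes; median -0.18), led by the sterol carrier Stard4, with 50.01 and 49 CPM with OSM and 69.2 and 62.8 with IL6 (log2 change -0.42, SE 0.068, adjusted p = 0.000843). This count was 9 without IL6 replicate 2, 7 without control replicate 1 and 2 without OSM replicate 2.

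Of 18 antioxidant genes under NRF2, 9 were called lower with OSM and 1 higher (median -0.24). The cystine importer Slc7a11 had 9.03 and 7.95 CPM with OSM and 28.3 and 20.7 with IL6 (log2 change -1.53, SE 0.24, adjusted p = 0.00272). The quinone reductase Nqo1 had 12.3 and 13.3 CPM with OSM and 25.6 and 37.9 with IL6 (log2 change -1.31, SE 0.17, adjusted p = 0.000412). Gclm, a subunit of the enzyme that starts glutathione synthesis, had 9.82 and 9.4 CPM with OSM and 14.9 and 18.5 with IL6 (log2 change -0.79, SE 0.13, adjusted p = 0.000699). Txnrd1, thioredoxin reductase, had 147 and 152 CPM with OSM and 196 and 223 with IL6 (log2 change -0.49, SE 0.067, adjusted p = 0.000196). In each of these genes both OSM libraries lay under both IL6 libraries, though the IL6 libraries of Nqo1 and Slc7a11 were spread. Prdx1 (log2 change 0.0026, SE 0.07, adjusted p = 0.988) and Hmox1 (log2 change 0.13, SE 0.082, adjusted p = 0.337) of the same list were not called. Without either OSM library the count of 9 was 5, and the 1 called higher was lost without IL6 replicate 1, either LIF library or either OSM library. In the Notch pathway 2 of 17 genes were called higher and 2 lower (median -0.10). These are 11.8% in each direction, against 8.02% and 7.52% of all genes. The ligand Jag1 fell, with 8 and 11.9 CPM with OSM and 22.4 and 22.9 with IL6 (log2 change -1.19, SE 0.15, adjusted p = 0.000127). The receptor Notch2 rose, with 96.5 and 90.5 CPM with OSM and 72 and 68.4 with IL6 (log2 change 0.41, SE 0.066, adjusted p = 0.000683). The counts ranged from 1 to 3 and 1 to 3 with single libraries left out.

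**Figure D5:**
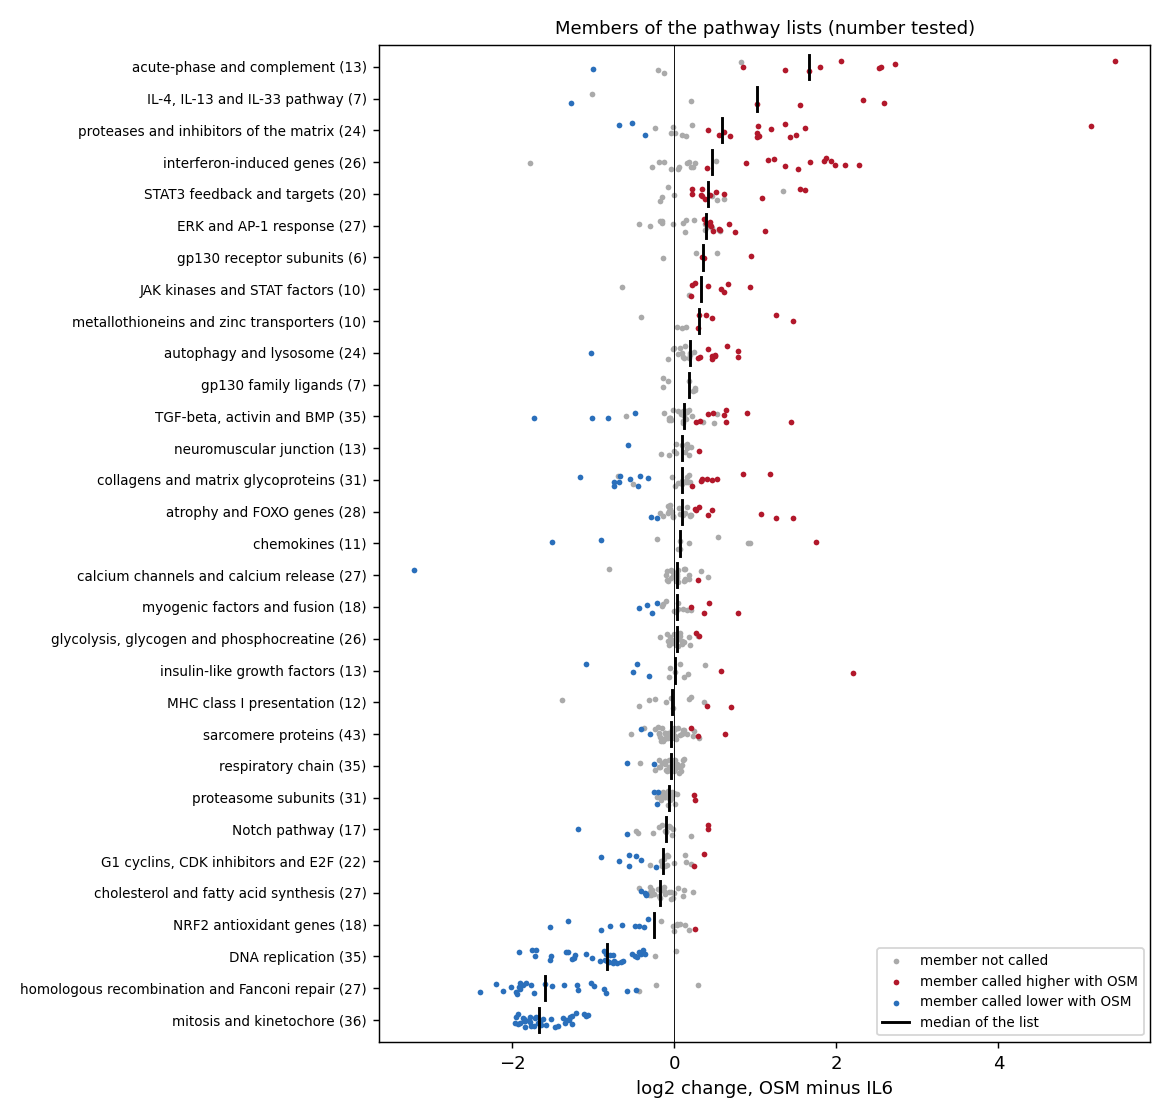
Log2 change between OSM and IL6 for each tested member of the 31 pathway lists, with the number tested in parentheses; each point is 1 gene, red where called higher, blue where called lower and grey where not called, and the black bar is the median of the list. Mitosis, recombination repair and DNA replication lie wholly or almost wholly left of 0 at the bottom, and sarcomere, respiratory and proteasome genes cluster at 0.

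Markers of further cell types that a limb-muscle culture can hold were mostly low or not called. Of 6 endothelial markers 3 passed the filter and 0 were called, and Emcn had 0 counts. Of 6 pericyte and smooth-muscle markers 4 were tested. Acta2, which muscle precursors also express, was called higher, with 722 and 718 CPM with OSM and 500.2 and 561 with IL6 (log2 change 0.44, SE 0.087, adjusted p = 0.00379). The pericyte marker Rgs5 was called lower, with 0.171 and 0.235 CPM with OSM and 0.893 and 0.54 with IL6 (log2 change -1.80, SE 0.56, adjusted p = 0.0435). That call was lost with DESeq2 and without either OSM library. Rgs5 reached the minimum count of the filter in both IL6 libraries but not in both OSM libraries. It passed the filter through libraries where it was high, so its call is a description only. Of 4 adipocyte markers Fabp4 alone was tested. It was called higher, with 1.51 and 1.24 CPM with OSM and 0.562 and 0.304 with IL6 (log2 change 1.65, SE 0.41, adjusted p = 0.0142), a call lost with DESeq2 and without IL6 replicate 2 or either OSM library. Fabp4 reached the minimum count of the filter in both OSM libraries but not in both IL6 libraries. It passed the filter through libraries where it was high, so its call is a description only. Plin1 stood at no more than 1 count in a library. Of 4 Schwann-cell markers 1 was tested and 0 were called. Wt1 is also a mesothelial marker: the other mesothelial markers tested, Msln (154 and 146 CPM with OSM and 165 and 148 with IL6, log2 change -0.057, SE 0.12, adjusted p = 0.812) and Krt19 (log2 change 0.064, SE 0.10, adjusted p = 0.743), were not called, and Upk3b had 0 counts in all 4 libraries.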

How the data were processed

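Libraries were made from total RNA with a stranded mRNA kit, per the labels' protocols. The authors deposited whole-number read counts per Ensembl gene; the submitters' processing notes name FastQC 0.11.9, MultiQC 1.12, Trim Galore 0.6.5, STAR 2.7.3a, HTSeq 0.11.1, DESeq2 1.34.0 and the build GRCm39 (mm39), while roles, settings, annotation and the strand used in counting are not given in the sources used here. Where a gene shares exons with an antisense gene, its count is uncertain for that reason.

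The 5 summary lines of each table, 11.7% to 12.7% of a library, were left out. Genes kept by filterByExpr (minimum count 10) were fitted over all 8 libraries and 4 groups with edgeR 4.0.16 in R 4.3.3 (TMM scaling, quasi-likelihood test), and OSM was contrasted with IL6; the error (SE) is the log2 change over the square root of its F. The alternatives are given in the closing section, run with limma 3.58.1 and DESeq2 1.42.0, and the procedure was tested on simulated data. Replicate numbers in the labels do not state a pairing, and same-numbered OSM and IL6 libraries deviated together with r = 0.054 only, so no block was used.

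Genes named are the 15 largest rises and falls among called, named protein-coding genes that averaged 100 or more counts and had groups apart, up to 6 called members per list and direction, with 2 highly expressed members where fewer were called, and the receptor chains, ligands, Socs3, Stat3, Fbxo32, Trim63, Eda2r and Myog. Named outside this rule after their values were seen were Irf1, B2m, Il1rl1, Lox, Mmp14, Fn1, Mki67, Bard1, Cdc6, Cdkn1a, Myh3, Acta1, Chrna1, Mymk, Gapdh, Prdx1, Hmox1, the uncalled members of the repair and replication lists, and the cell-type markers. The genes and the 31 pathway and 9 marker lists were chosen with earlier results of these data known. The lists overlap, and Timp1, Il4ra, Mt1, Mt2 and Ctsl are among the genes counted again. Gene symbols, overlaps and shared 50-base stretches come from GENCODE M21 on GRCm38, which holds 99.8% of the counts. No gene list gave a set test, and coordinates are those of the RefSeq windows on GRCm38.p6. Some genes that the rule or the lists take are not reported here by name.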

Additional observations from a re-analysis of the deposited data

How the results depend on the processing

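The number of genes called between OSM and IL6 was 2426 in the fit reported and 2065 to 3000 under the other tests, scalings and filters: 2065 in a fit of the OSM and IL6 libraries alone, 2065 with DESeq2, 2404 with limma-voom, 2431 with RLE size factors, 2516 with upper-quartile scaling, 2843 with no filter on low counts and 2305 with a mean of at least 50 counts. A requirement of at least 2-fold left 553 calls, 221 higher and 332 lower. Leaving out 1 library at a time gave 1105 to 2713 calls, 585 to 1443 of them higher and 520 to 1322 lower; the smallest counts came without OSM replicate 1 (1105) and OSM replicate 2 (1333), where 1 OSM library stands alone with an assumed spread. With the replicate number as a block, 3000 genes were called, 1531 higher and 1469 lower, but the numbers share no stated origin. Of 196 genes taken by the naming rule 184 were called; 68 of these lost the call in at least 1 alternative, 2 uncalled genes gained it (Ctf1 and Trim63), 0 changed direction, and 0 of the 30 with the largest changes lost theirs. Most losses came without OSM replicate 1 (56) or OSM replicate 2 (49); DESeq2 lost 7 and limma-voom 4. Depth limits what can be said of low genes: genes under the filter were not tested.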

Other observations

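Some genes outside the lists, all picked after their values were seen, also differed between OSM and IL6 in edgeR's quasi-likelihood test. Calcrl, the chain shared by the receptors for calcitonin gene-related peptide and adrenomedullin, had 218 and 219 CPM with OSM and 92.1 and 85.3 with IL6 (log2 change 1.30, SE 0.084, adjusted p = 3e-07). The leptin receptor Lepr had 8.07 and 8.02 CPM with OSM and 1.62 and 1.82 with IL6 (log2 change 2.22, SE 0.26, adjusted p = 5.67e-05), and Vipr1, a receptor for vasoactive intestinal peptide, 8.79 and 11.1 CPM with OSM and 2.41 and 2.6 with IL6 (log2 change 1.99, SE 0.18, adjusted p = 5.19e-06). The adenosine receptor Adora2b (log2 change 1.17, SE 0.10, adjusted p = 3.05e-06), the prostaglandin receptor Ptger4 (log2 change 1.33, SE 0.16, adjusted p = 8.1e-05) and the incretin receptor Gipr (log2 change 0.97, SE 0.12, adjusted p = 0.000251) were higher as well. Secreted osteopontin, Spp1, had 5022 and 4802 CPM with OSM and 1525 and 1608 with IL6 (log2 change 1.65, SE 0.066, adjusted p = 9.95e-09), and the surface proteoglycan Sdc1, syndecan 1, 550.1 and 527 CPM with OSM and 138 and 148 with IL6 (log2 change 1.91, SE 0.064, adjusted p = 1.55e-09). In the LIF libraries Spp1 stood at 1788 and 1909 CPM and Sdc1 at 256 and 269.6 CPM. On the lower side were Areg, a ligand of the EGF receptor (3.76 and 4.06 CPM with OSM and 11.3 and 9.21 with IL6, log2 change -1.39, SE 0.15, adjusted p = 3.11e-05), and Slit2, a guidance cue (2.91 and 2.32 CPM with OSM and 8.24 and 7.45 with IL6, log2 change -1.59, SE 0.17, adjusted p = 2.88e-05).

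Of 1381 long non-coding genes tested, 26 were called higher with OSM (1.88%, against 8.02% of all genes) and 41 lower (2.97%, against 7.52%). These shares were not matched for expression level, so they do not compare how strongly the sets responded. Gm6093 rose from 0.529 and 0.607 CPM with IL6 to 6.16 and 8.05 CPM with OSM (log2 change 3.64, SE 0.25, adjusted p = 3.88e-07), and Gm44275 fell (4 and 3.66 CPM with OSM and 12.5 and 11.6 with IL6, log2 change -1.65, SE 0.14, adjusted p = 2.85e-06). Of 12 tested Snhg genes, the hosts of small nucleolar RNAs, 5 were called lower (41.7%) and 1 higher (8.33%), with a median log2 change of -0.26. The shares of all genes were 7.52% and 8.02%. Snhg5 had 45.2 and 51.9 CPM with OSM and 62.2 and 66.1 with IL6 (log2 change -0.40, SE 0.086, adjusted p = 0.00568) and Snhg17 12.7 and 13.8 CPM with OSM and 18.6 and 17.8 with IL6 (log2 change -0.46, SE 0.10, adjusted p = 0.00744); Snhg3 was the one called higher (13.8 and 12.4 CPM with OSM and 10.5 and 9.95 with IL6, log2 change 0.36, SE 0.11, adjusted p = 0.0393). H19, the gene with the most counts in every library, was not called (24670 and 24623 CPM with OSM and 25369 and 28085 with IL6, log2 change -0.12, SE 0.071, adjusted p = 0.316).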
